A study of Rattus norvegicus with 8 samples.

Results

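Rgs5, Notch3, Flt1, Flt4 and Erg, 5 genes known from the cells of blood vessels, were followed in purified rat retinal ganglion cells (RGCs). They were found by symbol in the part of the study's supplementary gene table used here, which pairs 1998 of the 32623 Ensembl gene IDs in the count files with a symbol, and all 5 were paired. RGCs are the retinal neurons whose axons form the optic nerve. RNA was sequenced from RGCs of Sprague Dawley rats, with no genetic change or treatment named for either group, taken from embryos at embryonic day 21 (E21) and from pups at postnatal day 11 (P11), with 4 independent litters and so 4 libraries per stage. The methods describe dissociation with papain, at a higher amount for P11 retinas, then panning on a plate that removed macrophages and on a plate with an antibody against Thy1 that held the RGCs. No step against cells of the vessel wall is named there. The amount of papain and the stage cannot be told apart.

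A small vessel of the retina is a tube of endothelial cells wrapped by mural cells, the pericytes of capillaries and the smooth muscle cells of arterioles. Endothelial cells carry receptors for vascular endothelial growth factors (VEGFs), among them the VEGF-A receptor FLT1 (VEGFR1) and the VEGF-C and VEGF-D receptor FLT4 (VEGFR3), and depend on the transcription factor ERG of the ETS family. Mural cells carry the receptor NOTCH3, which is activated by Notch ligands on the neighbouring endothelium, and pericytes are marked by RGS5, which speeds up the switching off of G proteins. In the rat, vessels spread over the inner retina around birth and in the weeks after it.

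To show how the start regions of these genes differ, the 250 bases before the RefSeq start of the 4 members with enough counts for a test are given in genome build GRCr8, 5′ to 3′ on the strand of the gene. They lie at chr13:84380827-84381076 on the plus strand for Rgs5, chr7:11834586-11834835 on the minus strand for Notch3, chr12:12333180-12333429 on the plus strand for Flt1 and chr10:34414584-34414833 on the plus strand for Flt4. Capitals mark a GC box (GGGCGG, or its complement on the other strand), the full cAMP response element (CRE, TGACGTCA) and a TATA box (TATAAA).
Rgs5: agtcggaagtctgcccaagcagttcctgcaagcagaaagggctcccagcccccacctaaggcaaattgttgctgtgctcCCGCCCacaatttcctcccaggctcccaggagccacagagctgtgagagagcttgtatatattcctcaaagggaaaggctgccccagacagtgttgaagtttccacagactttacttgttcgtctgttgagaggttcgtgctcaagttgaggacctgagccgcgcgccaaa
Notch3: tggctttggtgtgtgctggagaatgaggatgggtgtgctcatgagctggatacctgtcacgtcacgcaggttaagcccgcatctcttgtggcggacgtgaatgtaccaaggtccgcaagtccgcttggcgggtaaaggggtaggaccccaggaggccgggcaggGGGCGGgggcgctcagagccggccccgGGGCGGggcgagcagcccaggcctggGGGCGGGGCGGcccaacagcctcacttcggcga
Flt1: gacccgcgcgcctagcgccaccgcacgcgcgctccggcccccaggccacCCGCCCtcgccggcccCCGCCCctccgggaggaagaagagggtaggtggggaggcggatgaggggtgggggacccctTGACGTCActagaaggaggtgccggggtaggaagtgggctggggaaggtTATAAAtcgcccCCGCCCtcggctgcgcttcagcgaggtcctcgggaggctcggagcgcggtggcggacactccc
Flt4: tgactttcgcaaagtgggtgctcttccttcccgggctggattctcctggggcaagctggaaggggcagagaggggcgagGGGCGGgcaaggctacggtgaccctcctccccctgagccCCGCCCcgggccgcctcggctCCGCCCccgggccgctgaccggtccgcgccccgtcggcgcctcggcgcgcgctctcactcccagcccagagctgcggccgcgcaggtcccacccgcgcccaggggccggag

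The windows of the VEGF receptors were the richest in G and C of the 4, with 73.2% for Flt1 and 76% for Flt4, above 95.1% and 97.1% of all windows of this length. That of Notch3 had 67.6% and that of Rgs5 had 54.4%, against a median of 51.2% over all windows. CpG pairs numbered 28 in Flt4, 27 in Flt1, 19 in Notch3 and 7 in Rgs5, with a median of 5 over all. The GC box was present 4 times in Notch3, with the last 2 copies sharing 1 base, 3 times each in Flt1 and Flt4, and 1 time in Rgs5, while 30.5% of the 33465 windows searched held it. Flt1 alone of the 5 members held the CRE, at bases 127 to 134 counted from the 5′ end of the window, and TATAAA, at bases 176 to 181. The CRE was found in 1.59% of all windows and TATAAA in 12.9%. The ETS core GGAA occurred 6 times in Rgs5, 3 times in Flt1 and in Flt4, 2 times in Erg and not in Notch3, in a genome where 93.2% of windows held it. The Notch effector motif TGGGAA, which contains GGAA, was found in Erg only and in 22.1% of all windows. CACGTG, an E-box found in 5.59% of windows, and the CArG box of serum response factor, found in 1.497%, were not matched in any of the 5. Both strands were searched, and a match describes the letters and not a bound site.

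Between 13899299 and 20116017 reads were counted on genes per library, so that 3 counts, used as a floor, equal 0.149 to 0.216 CPM (counts per unit of library size, taken here as the plain total and in all values below after edgeR's TMM scaling). Reads were not tagged as single molecules, so this floor covers counting error only. A library stood apart in each stage. P11 replicate 4 differed from the other 3 P11 libraries by 6.004 to 7.66 chi-square per degree of freedom, and the other P11 pairs by 2.76 to 3.73. E21 replicate 1 differed from the other E21 libraries by 5.96 to 6.70, and the other E21 pairs by 3.15 to 3.97. Values without these libraries stand beside the results. Alignments to several places, which the counting set aside, made up 34.7% ± 2.14 of records at P11 and 40.3% ± 2.04 at E21 (SD, n = 4 each, exact permutation test, two-sided, p = 0.0286, adjusted p = 0.0714 over 5 measures). Their part in the results was not tested. The neuronal genes Gap43, Uchl1 and Rbfox3 summed to between 3352 and 3494 CPM at E21 and between 2044 and 2173 CPM at P11, with Gap43 called higher at E21 (log2 fold change -1.46), while the RGC genes Pou4f1, Rbpms and Thy1 were not analysed here.

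All of the 4 members that could be tested were higher in the P11 libraries of purified RGCs than in the E21 libraries. The difference was 167-fold for Rgs5, 83.9-fold for Notch3 and 21.7-fold each for Flt1 and Flt4, and Erg had too few counts to test. Genes counted as called when the adjusted p was under 0.01 and the log2 fold change exceeded 1 in size, the thresholds of the study. Of 14043 genes tested, 16.5% were called higher at P11 and 8.16% higher at E21, and in 35.9% every P11 library was above every E21 library. The 4 members were called higher at P11, and in each of them the stages did not overlap. Ranked by fold change toward P11 over all genes tested, Rgs5 was at place 30, Notch3 at 56, Flt1 at 283 and Flt4 at 284. In RNA from bulk samples, fewer cells of a type and less RNA per cell cannot be told apart.

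Rgs5 (ENSRNOG00000002730), the pericyte marker, had 22, 16, 20 and 35 counts in E21 replicates 1 to 4 and 3098, 4244, 2384 and 5805 counts in P11 replicates 1 to 4. The E21 values were 1.47, 0.810, 1.05 and 2.56 CPM and the P11 values 208, 250.9, 151 and 316 CPM. The lowest P11 library was thus far above the highest E21 library, and within P11 replicate 4 was highest and replicate 3 lowest. The mean went from 1.47 ± 0.774 CPM (SD, n = 4) at E21 to 232 ± 69.7 CPM (SD, n = 4) at P11, a log2 fold change of 7.38 (SE 0.42, adjusted p = 3.62e-06, edgeR's quasi-likelihood test). Without P11 replicate 4 the P11 mean was 203 ± 50.03 CPM and the log2 fold change 7.20, and without E21 replicate 1 the latter was 7.40.

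Notch3 (ENSRNOG00000004346), the Notch receptor of mural cells, had 36, 39, 36 and 30 counts in the E21 libraries and 2316, 3400, 1908 and 4144 counts in the P11 libraries, in order of replicate. On the CPM scale these were 2.41, 1.97, 1.89 and 2.19 at E21 and 155, 201, 121 and 226 at P11. The E21 libraries were close together, and the order of the P11 libraries was that of Rgs5, replicate 4 first, then 2, 1 and 3. Its mean was 2.12 ± 0.233 CPM (SD, n = 4) at E21 and 176 ± 46.7 CPM (SD, n = 4) at P11, a log2 fold change of 6.39 (SE 0.32, adjusted p = 1.45e-06, edgeR). Leaving out P11 replicate 4 gave a P11 mean of 159 ± 40.1 CPM and a log2 fold change of 6.25, and leaving out E21 replicate 1 gave 6.45.

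Flt1 (ENSRNOG00000000940), the receptor for VEGF-A, had 0, 5, 4 and 2 counts at E21 and 39, 67, 43 and 97 counts at P11. In CPM the E21 libraries were at 0, 0.253, 0.210 and 0.146 and the P11 libraries at 2.62, 3.96, 2.73 and 5.28. The E21 values lay around the floor of 3 counts, which 2 of the 4 libraries passed, and P11 replicate 4 was again the highest. The log2 fold change between 0.152 ± 0.111 CPM (SD, n = 4) and 3.65 ± 1.25 CPM (SD, n = 4) was 4.44 (SE 0.41, adjusted p = 6.39e-08, edgeR). Pooled over the libraries of a stage, 11 counts at E21 against 246 at P11 gave a ratio of 23.8. Its 95% interval for counting error was 13.1 to 48.2. The pooled ratios here and below use plain library totals, without TMM scaling. The log2 fold change was 4.20 without P11 replicate 4 and 4.08 without E21 replicate 1, the library with no counts. In RefSeq's GRCr8 annotation the gene overlaps a pseudogene and 2 long noncoding RNAs, and the strand setting of the counting is not given in the sources used here, so reads of these could be shared with it.

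Flt4 (ENSRNOG00000002511), the receptor for VEGF-C and VEGF-D that is best known from lymphatic vessels, had 0, 10, 5 and 7 counts at E21 and 95, 130, 122 and 129 counts at P11. These equal 0, 0.506, 0.262 and 0.511 CPM at E21 and 6.38, 7.69, 7.74 and 7.03 CPM at P11. As for Flt1, E21 replicate 1 had no counts, but the P11 libraries lay close together and replicate 4 was below replicates 2 and 3. Flt4 went from 0.320 ± 0.243 CPM (SD, n = 4) to 7.21 ± 0.640 CPM (SD, n = 4), a log2 fold change of 4.44 (SE 0.31, adjusted p = 2.49e-09, edgeR). The pooled counts, 22 at E21 and 476 at P11, gave a ratio of 23.0 on plain library totals, with a 95% counting interval of 15.0 to 37.1. Without P11 replicate 4 the log2 fold change was 4.46 and without E21 replicate 1 it was 4.07.

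Erg (ENSRNOG00000001652), the endothelial transcription factor, had 0, 0, 2 and 0 counts at E21 and 1, 5, 6 and 10 counts at P11. Its values were 0.105 CPM in E21 replicate 3 and 0 in the other E21 libraries, and 0.0671, 0.296, 0.380 and 0.545 CPM in P11 replicates 1 to 4. The stages overlapped, since P11 replicate 1 was below E21 replicate 3. Every E21 library was under the floor, and so was P11 replicate 1, so the overlap lies below the floor. The means of 0.0262 ± 0.0524 CPM (SD, n = 4) and 0.322 ± 0.199 CPM (SD, n = 4) differed with p = 0.0571 (two-sided exact permutation test), where 0.0286 is the smallest p possible. The pooled counts of 2 and 22 gave a ratio of 11.7 on plain library totals, with a 95% counting interval of 2.87 to 103. When genes were tested without the filter on low counts, edgeR gave Erg a log2 fold change of 3.19 (SE 0.86, adjusted p = 7.04e-04 over 22557 genes), so the call depended on the filter and the test. Without P11 replicate 4 the P11 mean was 0.248 ± 0.162 CPM. Erg overlaps a pseudogene in RefSeq's GRCr8 annotation. As for Flt1, the strand setting of the counting is not given, so reads of the pseudogene could be shared with Erg.

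**Figure D1:**
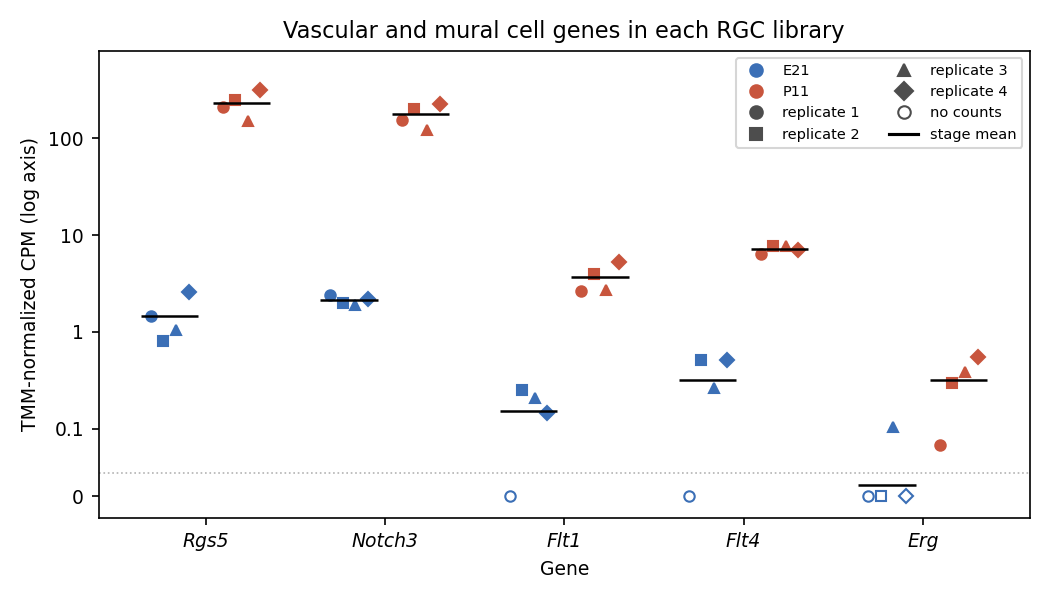
Each point is 1 library, with the TMM-normalized CPM on a log axis, E21 in blue and P11 in red. Symbols mark the replicate and bars the stage means. Libraries with no counts are open symbols, drawn below the dotted line at a fixed place labelled 0. Rgs5 and Notch3 were between 121 and 316 CPM in the P11 libraries and at 2.56 CPM or below in the E21 libraries, and Erg is the member whose stages overlap.

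**Figure D2:**
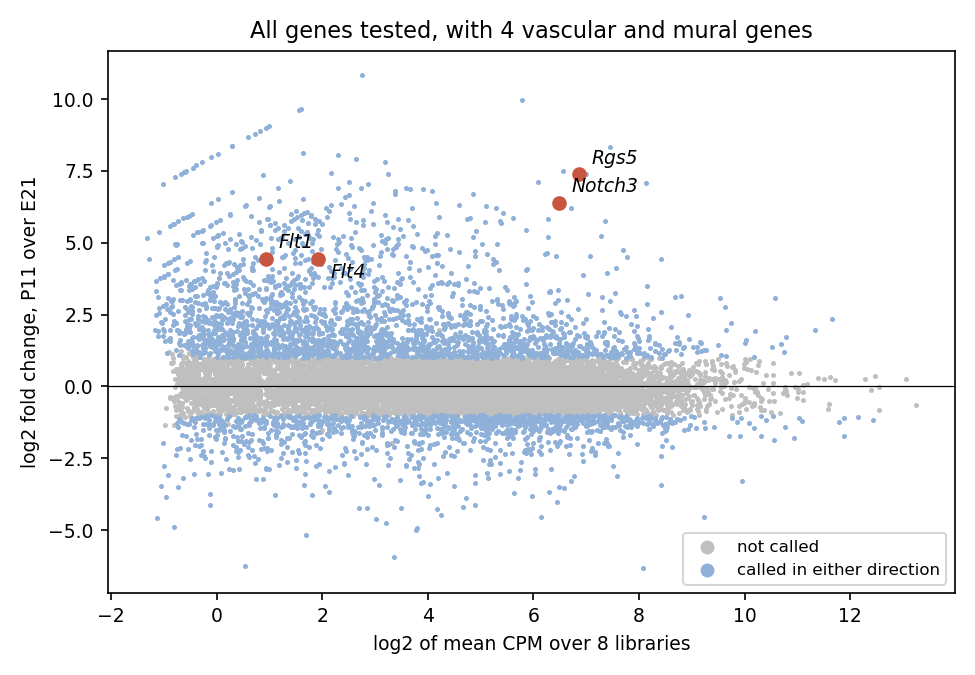
Each point is 1 of the 14043 genes tested, with the log2 of the mean CPM over the 8 libraries on the horizontal axis and the log2 fold change of P11 over E21 on the vertical axis, blue where called in either direction and grey where not. The 4 labelled members are at log2 fold changes of 7.38, 6.39, 4.44 and 4.44.

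Within P11 the members varied in different ways. The coefficient of variation over the 4 libraries was 30.1% for Rgs5, against a median of 4.04% over the genes tested whose P11 level was within 2-fold of it, and 99.8% of those genes varied less. For Notch3 it was 26.6% against a median of 4.11%, and 99.5% varied less. Flt1 had 34.3% against 15.8% and exceeded 92.8% of genes of its level. Flt4 varied by 8.88%, below the median of 11.6% for its level. The highest P11 library exceeded the lowest by 2.09 times for Rgs5, 1.87 times for Notch3, 2.02 times for Flt1 and 1.21 times for Flt4. The Rgs5 counts divided by the Flt4 counts of the same library were accordingly 32.6, 32.6, 19.5 and 45.0 in P11 replicates 1 to 4, and the Flt4 to Flt1 ratios 2.44, 1.94, 2.84 and 1.33. Rgs5 and Notch3 thus had the same order of P11 libraries and a like spread, while Flt4 had another order and a smaller spread.

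The order of the P11 libraries was compared with that of other genes, a comparison chosen after the values were seen and given without a test. Replicate 4 was highest and replicate 3 lowest in Rgs5 and Notch3, and in 9.39% of all genes tested and 18.6% of those called higher at P11. It held for 4 of the 4 other mural genes tested, 5 of the 7 other endothelial genes, 4 of the 5 basement membrane genes and 6 of the 9 fibroblast genes. Flt1 and Erg had replicate 4 highest but replicate 1 lowest, and Flt4 had neither. Of 5 photoreceptor and 3 neuronal genes tested, 0 had this order. It held for 3 of the 9 other Notch pathway genes and 1 of the 3 other ETS genes. Of the 5 amacrine, horizontal and bipolar cell genes, 3 red cell genes and 3 other R4 RGS genes tested, 0 had it. These genes share the same 4 libraries, of which replicate 4 stood apart over all genes.

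**Figure D3:**
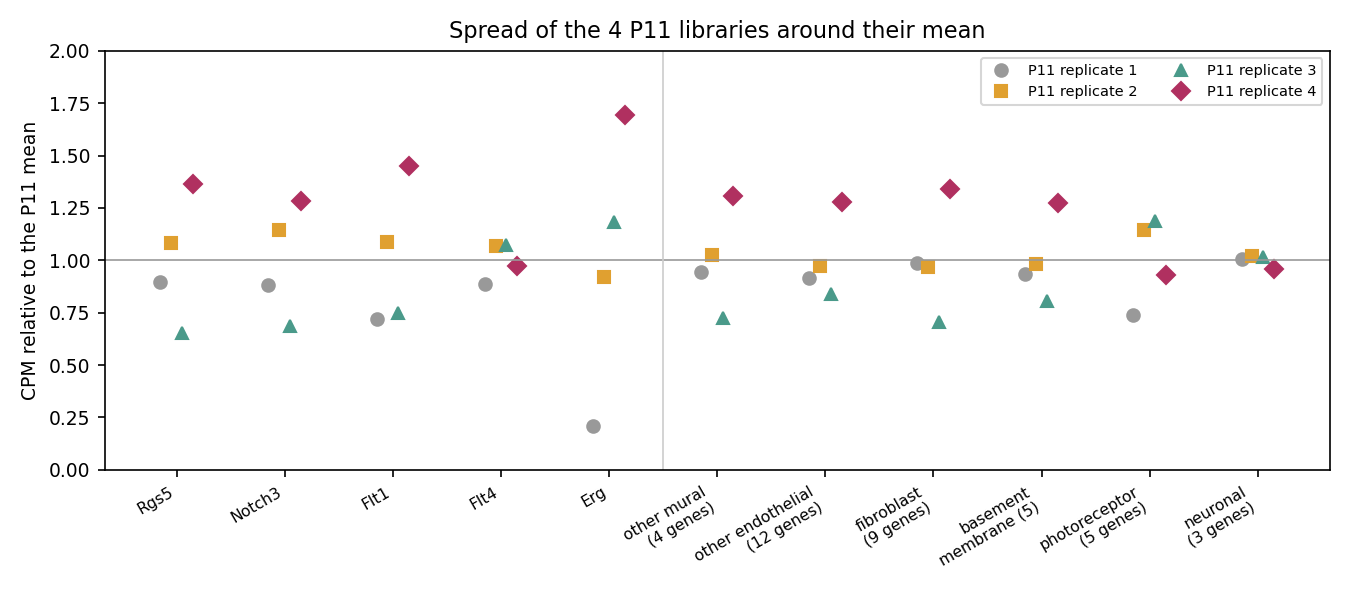
The vertical axis gives the CPM of each P11 library divided by the mean of the 4 P11 libraries, for each member on the left and for the summed CPM of marker lists on the right, with a symbol and colour for each replicate. Replicate 4 is highest and replicate 3 lowest for Rgs5, Notch3 and the other mural, endothelial, fibroblast and basement membrane sums. This order does not hold for Flt1, Flt4, Erg, the photoreceptor sum or the neuronal sum.

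The members were next set beside the other genes of their cell types and pathways, in lists described by their counts and medians beside the median log2 fold change of -0.0042 over all genes tested. Of 22 mural genes listed, 6 were paired and tested, and all 6 were called higher at P11, with a median log2 fold change of 4.48, or 4 of 4 with a median of 3.96 without Rgs5 and Notch3. Beside Rgs5 and Notch3 these were the myosin light chain kinase Mylk, which went from 1.38 ± 0.103 to 32.6 ± 7.69 CPM (log2 fold change 4.55), the pericyte gene Higd1b (4.42), Art3 (3.51) and the smooth muscle coactivator Myocd (2.69). The sum of these 4 genes ran from 2.68 to 2.81 CPM over the E21 libraries and from 35.4 to 64.0 CPM over the P11 libraries.

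The endothelial genes were less uniform. Of 36 listed, 15 were paired and 9 were tested, of which 6 were called higher at P11, 1 was called higher at E21 and 2 were not called, with a median log2 fold change of 2.06. Without Flt1 and Flt4, 4 of 7 were called higher at P11, with a median of 1.72. Beside Flt1 and Flt4 the genes that rose were Itm2a (3.17), the ETS factor Elk3 (2.91), the GTPase-activating protein Arhgap31 (2.06) and Heg1, a receptor of endothelial junctions (1.72). Gpr182, a chemokine-binding receptor, fell by 1.38 on the log2 scale. The endothelial receptor Notch4 had means of 21.4 ± 1.69 and 23.2 ± 4.74 CPM at E21 and P11 (log2 fold change 0.12) and Ldb2 had a log2 fold change of -0.25, and neither was called. Erg, Apln, Ca4, Sele, Selp and Tmem100 had too few counts to test. The endothelial genes other than the members summed to between 50.2 and 56.7 CPM at E21 and between 88.4 and 134.9 CPM at P11. Other defining genes, such as Pecam1, Cdh5, Kdr, Pdgfrb and Acta2, were not analysed here, so the naming of the group rests on the genes above.

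**Figure D4:**
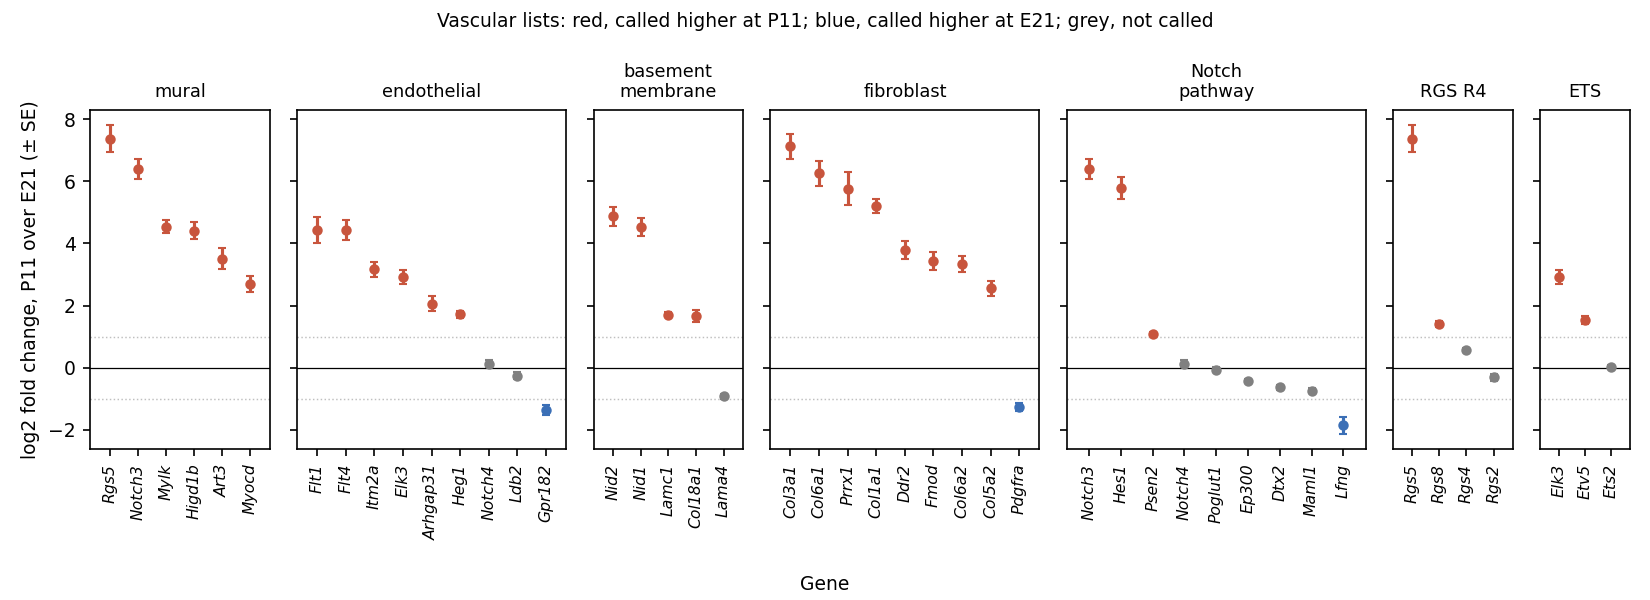
The vertical axis gives the log2 fold change of P11 over E21 with its standard error for genes tested in 7 lists, red where called higher at P11, blue where called higher at E21 and grey where not called, with dotted lines at the fold threshold. The 6 mural genes are all red, while Notch3 and Hes1 lie apart from the other Notch pathway genes and Rgs5 from the other RGS genes.

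Rgs5 and Notch3 had larger fold changes than the relatives of their families that were tested. Of 10 VEGF ligands and receptors listed, Flt1 and Flt4 were the 2 that were paired, so the ligands were not analysed here. Of 29 Notch pathway genes, 10 were tested, with 3 called higher at P11, 1 called higher at E21 and a median log2 fold change of -0.14. Beside Notch3 those that rose were the Notch target Hes1, from 0.259 ± 0.182 to 13.4 ± 3.99 CPM (log2 fold change 5.78), and Psen2, a catalytic subunit of gamma-secretase (1.10). Lfng, a sugar transferase that modifies Notch receptors, fell by 1.86 on the log2 scale. Notch4, Poglut1, Ep300, Dtx2 and Maml1 had log2 fold changes between 0.12 and -0.74 and were not called.

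Of 10 RGS proteins of the R4 subfamily, to which RGS5 belongs, 4 were tested and 2 were called higher at P11. They were Rgs5 and Rgs8, which went from 64.0 ± 10.3 to 171.8 ± 7.74 CPM (log2 fold change 1.42). Rgs4 and Rgs2, at log2 fold changes of 0.56 and -0.31, were not called, and Rgs13 had too few counts. Of 25 ETS factors, the family of Erg, 3 were tested, with Elk3 (2.91) and Etv5 (1.53) called higher at P11 and Ets2 (0.02) not called.

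Markers of other cells also differed between the stages, in both directions. Of 9 fibroblast and fibrillar matrix genes tested, 8 were called higher at P11 and 1 at E21, with a median log2 fold change of 3.79. The collagen gene Col3a1 went from 0.986 ± 0.330 to 135 ± 39.6 CPM (7.13), and their summed level from between 33.1 and 34.4 CPM to between 290.0 and 549.8 CPM. Of 5 basement membrane genes 4 were called higher at P11, led by the nidogen gene Nid2 (4.88), and the laminin gene Lama4 was not called (-0.92), though it was called higher at E21 without P11 replicate 4. They summed to between 350 and 384 CPM at E21 and between 503 and 797 CPM at P11. Of 5 photoreceptor genes 3 were called higher at P11, with sums of 5.52 to 7.09 CPM at E21 and 22.8 to 36.6 CPM at P11. The red cell genes Alas2 and Klf1, at log2 fold changes of 0.76 and 0.80, were not called. Of 5 amacrine, horizontal and bipolar cell genes 2 were called higher at P11 and 1 higher at E21. Their sums were 473 to 492 CPM at E21 and 406 to 417 CPM at P11. Most of each sum was Pax6, with means of 432 and 305 CPM at E21 and P11, which was not called (-0.50). The sums therefore do not show the direction of the other genes of this list. The glial gene S100b was called higher at P11 (5.45), while Gfap had at most 3 counts in each library. Sox9, of the same list, had too few counts to test and had means of 0.622 ± 0.115 and 0.354 ± 0.0916 CPM (SD, n = 4) at E21 and P11, with every E21 library above every P11 library. The microglial genes Ptprc, Aif1 and Itgb2 had too few counts to test and summed to at most 0.951 CPM in any library. The part of these cells in the change of the 5 vascular genes was not tested.

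The paired genes whose profiles over the 8 libraries were most like each member were sought among 1778 genes. The measure was the root mean square difference of centred log2 CPM values, with 0.5 added to each count before scaling. For Rgs5 they were Sod3 at 0.373, Hlx at 0.419 and Col3a1 at 0.475, against a median of 3.73 over all genes compared, and Notch3 was at place 6 with 0.642. For Notch3 they were Hlx at 0.308, Sod3 at 0.359 and the collagen gene Col6a1 at 0.384, against a median of 3.19, and Rgs5 was at place 13. Sod3, the extracellular superoxide dismutase, and the homeobox gene Hlx had 0 counts in every E21 library, so their likeness depends on the pseudocount of 0.5, and their P11 means were 3.80 ± 0.661 and 3.53 ± 1.25 CPM (SD, n = 4). For Flt1 the nearest were the interferon-induced Mx1 at 0.484, Flt4 at 0.545 and the GABA receptor subunit gene Gabrg1 at 0.635, against a median of 2.505. For Flt4 the nearest 2 were Flt1 at 0.545 and Mx1 at 0.690, against a median of 2.76. The pair of VEGF receptors was thus near each other on this measure, although their P11 libraries were ordered differently. Flt1, Flt4 and Mx1 all had 0 counts in E21 replicate 1, and the receptors had at most 10 counts in any E21 library. Their nearness therefore also depends on the pseudocount of 0.5.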

How the data were processed

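Reads were trimmed (cutadapt 1.16), quality filtered (PRINSEQ), aligned to Rnor_6.0 (STAR 2.5.3a) and counted on Ensembl genes (HTSeq 0.6.1) by the authors, per the study's methods and the submitters' processing notes. The deposited values are raw counts per gene for each of 8 libraries, without normalization or pooling. The annotation release and strand setting are not given in the sources used here. Depth was 13899299 to 20116017 counts per library.

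Counts were filtered with filterByExpr, scaled by TMM and tested with the quasi-likelihood test of edgeR 4.0.16 (R 4.3.3), stage only, with Benjamini-Hochberg adjustment over all 14043 genes tested. Fold changes are P11 over E21. Exact tests and counting intervals used scipy 1.17.1 (Python 3.11.15). The fit was tested on simulated data. The members and lists were chosen with earlier results of these data known. Named were the members, the paired genes of their cell types and families, the leading gene and the most abundant gene of other lists and up to 3 genes most like each member. The results of some genes are not reported here. Other genes, such as those of small groups and those left untested, were named after their values were seen. Of 197 listed genes 72 were paired with symbols, since the part of the gene table used here holds 1998 IDs, so counts over lists cover that part only. Gene lengths of the files' build were not used here, so levels were not compared between genes. Promoters and overlaps are from RefSeq GRCr8, and 5 of 5 members matched. Alternatives were DESeq2 1.42.0, other scalings and filters, glmTreat, a replicate block and each library left out.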

Additional observations from a re-analysis of the deposited data

Results flagged for a closer look

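Erg in E21 replicate 3 was at 0.105 CPM while the other E21 libraries were at 0, so that this library lay apart from the other 3 by the whole range of the group. The value stands for 2 counts. With the other 3 libraries at 0, any count would have set this library apart, so the rate of about 1 in 20 groups that chance sets apart does not apply here.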

How the results depend on the processing

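Rgs5, Notch3, Flt1 and Flt4 kept their direction and call in every alternative that tested them, with log2 fold changes of 7.16 to 7.73, 6.25 to 6.54, 4.08 to 4.80 and 4.07 to 4.80, and these ranges were set by leaving out libraries. Requiring at least 10 counts in every library left 12532 genes, removed Flt1 and Flt4, and lowered the genes called higher at P11 to 1523 over all genes, 3 mural, 5 fibroblast, 0 VEGF, 0 glial, 0 photoreceptor and 1 interneuron, and those called higher at E21 to 0 in the Notch pathway. Testing against the fold threshold with glmTreat gave 668 genes higher at E21 over all genes and 0 endothelial, 0 fibroblast and 0 interneuron. With libraries left out, 2337 to 2443 genes were called higher at P11 and 1109 to 1225 higher at E21, endothelial genes higher at P11 numbered 6 to 7, and basement membrane genes higher at E21 numbered 0 to 1, the latter without P11 replicate 4. The Erg difference was then 0.222 to 0.381 CPM with exact p of 0.0571 to 0.114, and 0.0571 is the smallest p that 3 libraries against 4 allow. With the replicate number as a block, 2316 genes were called higher at P11 and 1147 at E21, and the log2 fold changes were 7.35, 6.36, 4.41 and 4.46. Same-numbered libraries correlated at -0.021, 0.064, -0.017 and 0.072, and litters were independent, so the numbers do not pair the samples. The other counts of calls stayed within 1.5 times the main count, though not always equal to it, as with 2899 genes higher at P11 without the filter and 1649 by glmTreat over all genes, and 8 and 4 endothelial genes without the filter and with at least 10 counts.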

Other observations

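The counts of Rgs5 divided by those of Notch3 in the same library, a measure chosen after the values were seen, were 0.611, 0.410, 0.556 and 1.17 in E21 replicates 1 to 4 and 1.34, 1.25, 1.25 and 1.40 in P11 replicates 1 to 4. The ratio was higher in all 4 P11 libraries than in any E21 library and its spread was smaller at P11. On the log2 scale the difference was 1.04 (exact permutation test, two-sided, p = 0.0286, the smallest p that 4 libraries against 4 allow). The E21 ratios rest on 16 to 35 counts of Rgs5 and 30 to 39 counts of Notch3.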
